A study of Mus musculus with 2 samples.

Results

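Open chromatin at 9 genes of the neural lineage was examined in mouse cardiac progenitor cells (CPCs) on day 5 of their derivation from embryonic stem cells. The genes were 7 transcription factors of the basic helix-loop-helix (bHLH) family, Neurog1, Neurog2, Neurod1, Neurod2, Atoh1, Olig1 and Olig2, and 2 cytoskeletal genes used as neural markers, Nes and Tubb3. Every distinct ATAC-seq peak that the deposited list assigned to one of these gene symbols was taken, and a gene without a peak counted as 0. This gave 18 of the 26232 distinct peaks in the list, and 8 of the 9 genes carried at least 1 of them. Neurod2 was the gene with none. Among 21900 protein coding genes, 62.5% (95% Wilson confidence interval 61.9 to 63.2%) had at least 1 assigned peak.

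Neurogenic bHLH proteins start and carry through the conversion of dividing neural precursors into neurons. They pair with the widely present E-proteins and bind the E-box, a short DNA element that for the neurogenin, NeuroD and Atoh1 groups is often read as CAGATG. Neurog1 and Neurog2 act early in this cascade, Neurod1 and Neurod2 act later in differentiating neurons, Atoh1 directs cerebellar granule and inner ear hair cells, and Olig1 and Olig2 direct motor neuron and oligodendrocyte formation. Id proteins trap E-proteins, and Hes repressors acting below Notch hold the proneural genes down. Nestin, the product of Nes, is an intermediate filament protein of neural progenitors that is also made in other dividing precursors, and Tubb3 encodes the beta-tubulin typical of neurons. The heart arises from mesoderm, where these genes are not the lineage regulators.

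Per the labels, both samples were CPCs differentiated from E14 embryonic stem cells carrying the Tg(Nkx2-5-EmGFP) reporter, a green fluorescent protein placed under the heart gene Nkx2-5, with the strain entered as C57BL/6. Per the study's methods the 2 samples came from independent differentiations. The methods on cell culture describe a day 5 sort of reporter-positive cells, which for the directed protocol named in the labels is given as a step before RNA isolation, while neither the ATAC-seq methods nor the labels say whether the cells used here were sorted. The peak list is named as that of control cells. There was 1 group and no other group to compare it with, and the Isl1 knockdown cells that the series' description mentions were not analysed here. ATAC-seq marks open chromatin through the Tn5 transposase, which inserts sequencing adapters into accessible DNA.

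The deposited list holds regions called as peaks in both samples, with a start, an end, a signed distance in bp from a transcription start site (TSS) to the peak midpoint, and the assigned gene. It has no height, p-value or value per sample. The read depth and the error between replicates are therefore unknown, every value below is a description without a test, and an unlisted region was not shown to be closed. Widths depend on the depth and the caller as well as on the chromatin. Of the markers of the labelled cell type, 6 of 7 cardiac progenitor genes carried a peak, with 29 peaks in all and none at Hand2, as did 3 of 4 pluripotency genes and all 4 blood and endothelial genes. Over all protein coding genes the share was 62.5%, and these short marker lists do not tell the cell types apart. A peak shows accessible DNA and not transcription, and fewer cells with an open site cannot be told apart from a less open site in each cell.

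The number of peaks per gene ran from 0 to 3. Neurog2, Atoh1, Olig2 and Nes had 3 peaks each, Olig1 and Tubb3 had 2, Neurog1 and Neurod1 had 1, and Neurod2 had 0. At least 2 peaks were found at 6 of the 9 genes, against 24.4% of all protein coding genes, and at least 3 peaks at 4 of the 9, against 10.3%. These counts and shares hold for the deposited assignment only. By nearest annotated TSS, peaks of Atoh1, Olig1, Olig2 and Nes and the peak of Neurod1 would pass to other annotated genes. Neurog2 alone would then keep 3 peaks. The median was 2 peaks per gene for the 9 and 1 peak for all protein coding genes. No gene of the 9 exceeded 3 peaks, whereas 2.56% of coding genes had 4 peaks, 1.00% had 5 and 1.23% had 6 or more. Neurod2 thus lay below the median of coding genes, Neurog1 and Neurod1 lay at it and the other 6 genes lay above it.

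**Figure D1:**
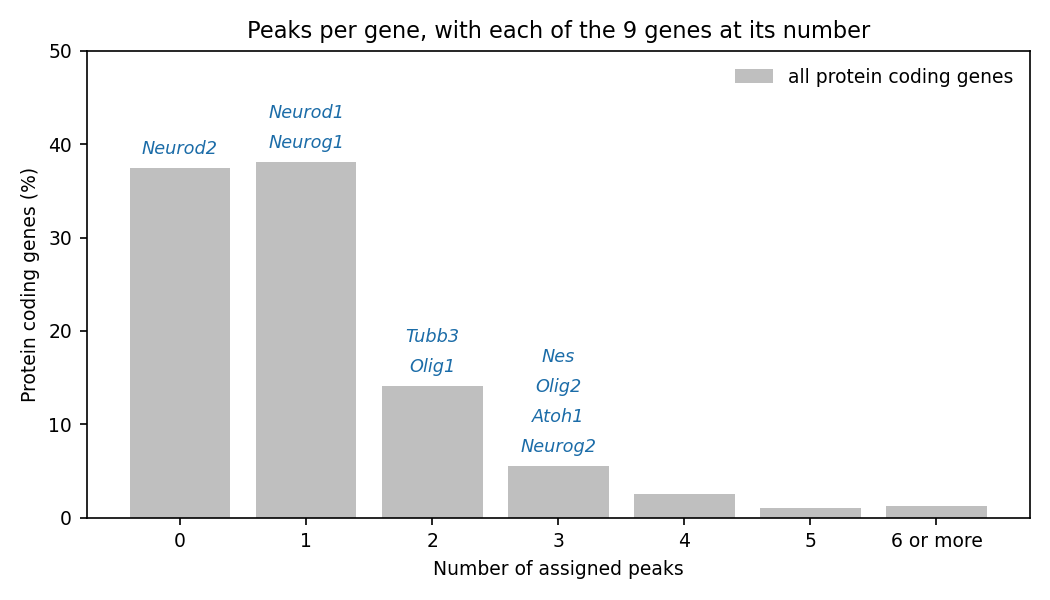
Bars give the share of protein coding genes (vertical axis, %) with each number of assigned peaks (horizontal axis), and the name of each of the 9 genes stands above the bar for its own number. Neurog2, Atoh1, Olig2 and Nes stand at 3 peaks, a number reached by 5.56% of coding genes, and Neurod2 stands at 0 with 37.5% of coding genes.

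Peaks lay over the promoter at 7 of the 9 genes. The promoter was taken as 500 bp in each direction from the first annotated coding TSS of the gene. A peak overlapped this window at Neurog1, Neurog2, Atoh1, Olig1, Olig2, Nes and Tubb3, and at 53.6% of all coding genes. The TSS base itself lay inside a peak at 6 of the 9 genes, all of these except Neurog2, and at 51.8% of all coding genes. Neurod1 and Neurod2 had no peak over the promoter.

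Promoters were also grouped by their CpG content, since CpG-rich promoters are open in most cell types. A promoter was called CpG-rich when its observed over expected CpG ratio was at least 0.6 and its GC content at least 50%. By this rule 8 of the 9 promoters were CpG-rich, and 7 of these 8 carried a peak. Among all CpG-rich coding promoters 89.4% overlapped a peak, so the share at the neural genes was close to that of their promoter class. The TSS base lay inside a peak at 6 of the 8 CpG-rich genes, against 88.3% of all CpG-rich coding genes. Neurod1 was the CpG-rich promoter without a peak. The promoter of Neurod2 fell in the CpG-poor class, with a GC content of 59.3% and a CpG ratio of 0.45, and 24.8% of CpG-poor promoters overlapped a peak.

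**Figure D2:**
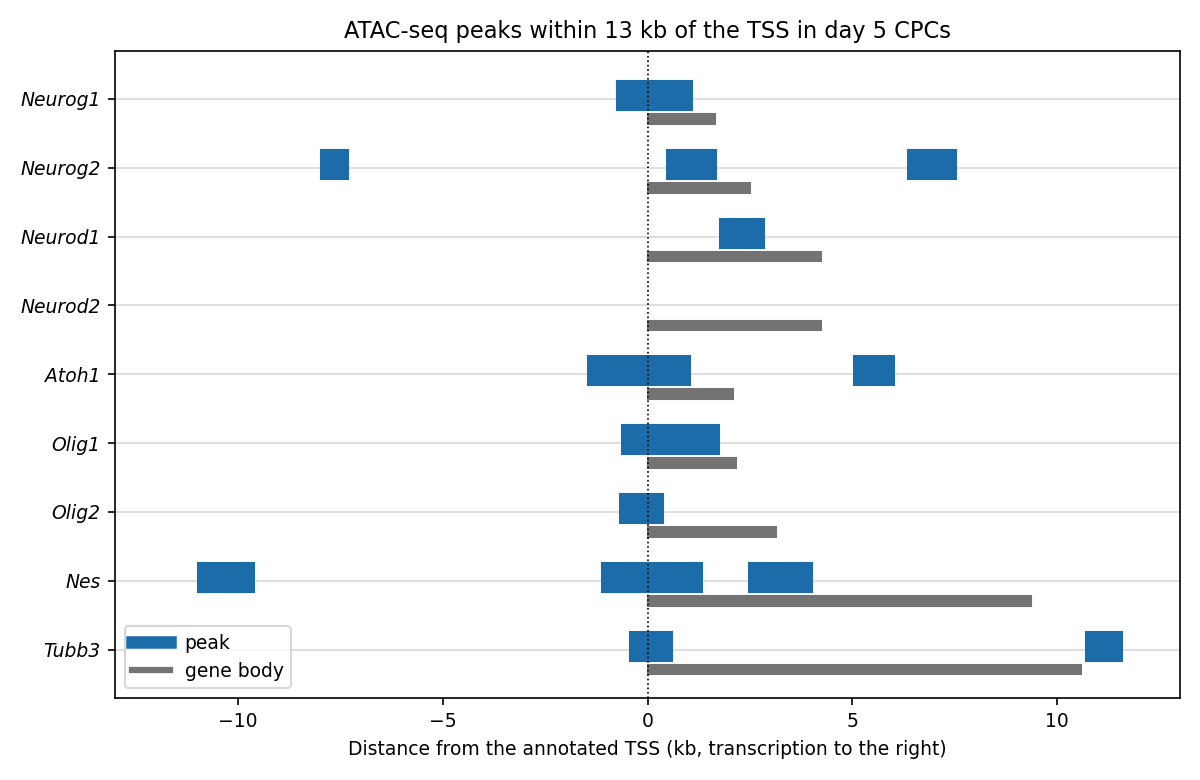
Each row shows one gene turned so that transcription runs to the right, with the annotated TSS at 0 (horizontal axis, kb). Blue boxes are ATAC-seq peaks and grey bars are gene bodies. The map holds 14 of the 18 peaks, and the other 4, at Atoh1, Olig1 and Olig2, lie beyond 13 kb. Peaks cover the TSS at Neurog1, Atoh1, Olig1, Olig2, Nes and Tubb3, the middle Neurog2 peak and the Neurod1 peak begin inside the gene, and Neurod2 has none.

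Neurog1 (NM_010896, minus strand, chr13:56351866-56353524, mm9) had a single peak of 1833 bp at chr13:56352442-56354274, with its midpoint 167 bp downstream of the TSS. The peak covered 750 bp upstream of the gene, 351 bp of untranslated exon and 732 bp of coding sequence, so more of it lay inside the gene than before it. It was wider than 81.3% of all peaks within 1 kb of a TSS. The next peaks on either side belonged to other genes, with midpoints 44135 bp upstream, at Cxcl14, and 30663 bp downstream, assigned to 4930550C17Rik.

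Neurog2 (NM_009718, plus strand, chr3:127336054-127338549) differed in that no peak covered its TSS. Its middle peak, of 1196 bp at chr3:127336523-127337718, started 469 bp after the TSS and lay over 789 bp of coding sequence, 284 bp of untranslated exon and 123 bp of intron. A second peak of 653 bp had its midpoint 7656 bp upstream, at chr3:127328082-127328734. The last, of 1177 bp, lay 6942 bp downstream of the TSS, at chr3:127342418-127343594, starting 3869 bp past the end of the gene. Neurog2 is far from other genes, with 79647 bp to the nearest neighbouring TSS upstream and 147377 bp downstream, and no peak of another gene lay within 50 kb. The centre of the middle peak is shown because it falls in the open reading frame, in the part that encodes the DNA-binding bHLH domain, rather than at the start site (chr3:127336971-127337270, mm9, plus strand, 5′ to 3′). Capitals mark a CAGATG E-box, here met on the opposite strand as CATCTG.
Neurog2 peak centre: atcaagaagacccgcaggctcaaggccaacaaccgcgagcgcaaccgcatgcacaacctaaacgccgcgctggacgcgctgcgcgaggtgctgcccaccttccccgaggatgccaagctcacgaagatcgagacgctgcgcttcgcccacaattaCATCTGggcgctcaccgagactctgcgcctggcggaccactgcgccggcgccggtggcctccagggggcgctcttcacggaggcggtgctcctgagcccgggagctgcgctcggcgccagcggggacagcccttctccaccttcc

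Neurod1 (NM_010894, minus strand, chr2:79292678-79296908) also had its single peak inside the gene. The peak of 1069 bp at chr2:79294059-79295127 began 1781 bp after the TSS and consisted of 1004 bp of coding sequence and 65 bp of untranslated exon. Its deposited distance was 2201 bp, and from the annotated TSS used here the midpoint lay at 2315 bp. An annotated transcript named Gm17325 has a TSS nearer to this peak, so an assignment by nearest annotated TSS would leave Neurod1 with no peak. Its promoter was CpG-rich, with a CpG ratio of 0.68, but overlapped no listed peak. Neurod1 and Neurod2 were thus alike in having no promoter peak and differed in the peak over the coding exon.

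Neurod2 (minus strand, chr11:98186729-98190962) had no assigned peak. The nearest edge of any peak lay 18501 bp from its TSS, on the upstream side. That peak, of 1155 bp, was at the promoter of Ppp1r1b, the neighbouring gene, whose TSS is 18756 bp away. The next peak, at Stard3, had its midpoint 28788 bp upstream of the Neurod2 TSS. Among the 7 bHLH genes Neurod2 alone had no assigned peak, while 37.5% of all protein coding genes had none. By nearest annotated TSS Neurod1 would have none either.

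Atoh1 (NM_007500, plus strand, chr6:64679140-64681227) had the widest peak of the 9 genes. It spanned 2488 bp at chr6:64677682-64680169, with the midpoint 215 bp upstream of the TSS, and was wider than 95.4% of peaks within 1 kb. It was made up of 1458 bp upstream of the gene, 177 bp of untranslated exon and 853 bp of coding sequence, and it was the one interval among the 18 that stood on 2 lines of the list. A second peak of 978 bp at chr6:64684191-64685168 lay 5539 bp downstream of the TSS and 2964 bp past the end of the gene. The region downstream of Atoh1 is known to hold an enhancer that Atoh1 itself binds, and whether this peak is that element was not tested. The promoter peak centre is shown because it lies wholly upstream of the gene (chr6:64678776-64679075, plus strand) and held none of the searched E-boxes. The downstream centre is shown because it held a pair of CAGCTG E-boxes, in capitals, a form bound by myogenic bHLH factors (chr6:64684530-64684829, plus strand).
Atoh1 promoter peak centre: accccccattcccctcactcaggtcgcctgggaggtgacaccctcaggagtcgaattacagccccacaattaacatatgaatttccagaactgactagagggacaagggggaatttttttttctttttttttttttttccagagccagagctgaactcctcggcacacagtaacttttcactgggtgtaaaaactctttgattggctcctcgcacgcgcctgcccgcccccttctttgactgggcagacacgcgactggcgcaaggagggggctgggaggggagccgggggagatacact
Atoh1 downstream peak centre: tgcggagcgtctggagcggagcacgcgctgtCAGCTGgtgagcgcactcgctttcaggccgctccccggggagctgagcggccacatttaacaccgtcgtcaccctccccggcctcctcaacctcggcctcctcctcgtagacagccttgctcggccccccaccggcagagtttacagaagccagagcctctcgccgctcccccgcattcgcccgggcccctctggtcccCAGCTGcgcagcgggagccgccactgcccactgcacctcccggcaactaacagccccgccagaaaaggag

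The remaining Atoh1 peak was the most distant of the 18, with 865 bp at chr6:64281593-64282457 and a deposited distance of 397116 bp upstream. Its sequence was repeated elsewhere. All 834 words of 32 bases in it occurred more than once in the genome, with up to 1196 copies of a word. Its centre (chr6:64281876-64282175, plus strand) is shown for its tandem structure, in which 4 CAGATG E-boxes, in capitals as CATCTG, followed each other at spacings of 66 to 68 bp and each stood after an ATTTGCAT octamer. Reads that lie wholly in such sequence match several places, no filter on mapping quality is described in the study's methods, and the part of this in the peak was not tested.
Atoh1 remote peak centre: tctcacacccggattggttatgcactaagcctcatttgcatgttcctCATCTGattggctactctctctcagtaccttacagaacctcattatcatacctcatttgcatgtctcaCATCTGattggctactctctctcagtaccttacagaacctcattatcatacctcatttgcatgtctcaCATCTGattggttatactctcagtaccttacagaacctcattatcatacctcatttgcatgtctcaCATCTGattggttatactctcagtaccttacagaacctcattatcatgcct

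Olig1 and Olig2 are neighbours in the same orientation, with TSSs 44219 bp apart on chromosome 16. Olig1 (NM_016968, plus strand, chr16:91270014-91272184) had a peak of 2374 bp at chr16:91269387-91271760, 559 bp downstream of the TSS, that was wider than 94.1% of peaks within 1 kb. It held 627 bp upstream of the gene, 967 bp of untranslated exon and 780 bp of coding sequence. Olig2 (NM_016967, plus strand, chr16:91225795-91228922) had a promoter peak of 1059 bp at chr16:91225114-91226172, 153 bp upstream of the TSS, with 681 bp upstream, 104 bp of untranslated exon and 274 bp of intron. It was narrower than most, with 23.7% of peaks within 1 kb below its width. The open region at Olig1 thus reached deep into the gene and that at Olig2 ended early in it, which the plot of peaks along the genes shows.

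The centres of these promoter peaks are shown because they hold different kinds of sequence. The Olig1 centre (chr16:91270424-91270723, plus strand) is coding sequence for the bHLH domain, with a GC content of 72.0%. The Olig2 centre (chr16:91225494-91225793, plus strand) is upstream sequence that ends just before the TSS, with a GC content of 67.3%. None of the motifs counted below was present in either.
Olig1 peak centre: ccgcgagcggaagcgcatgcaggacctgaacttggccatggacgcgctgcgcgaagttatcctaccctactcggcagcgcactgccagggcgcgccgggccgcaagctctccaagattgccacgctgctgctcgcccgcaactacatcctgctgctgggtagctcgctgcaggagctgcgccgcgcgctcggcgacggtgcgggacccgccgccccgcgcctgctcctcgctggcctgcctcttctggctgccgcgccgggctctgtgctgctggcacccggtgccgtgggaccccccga
Olig2 promoter peak centre: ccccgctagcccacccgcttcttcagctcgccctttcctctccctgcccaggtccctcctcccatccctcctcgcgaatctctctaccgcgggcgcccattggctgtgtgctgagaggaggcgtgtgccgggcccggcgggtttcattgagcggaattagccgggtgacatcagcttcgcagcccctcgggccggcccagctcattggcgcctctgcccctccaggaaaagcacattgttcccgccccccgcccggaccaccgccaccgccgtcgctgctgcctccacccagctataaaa

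The remaining peaks of the pair lay outside the interval between these genes. Olig1 had a second peak of 894 bp at chr16:91314120-91315013, 44552 bp downstream of its TSS. Olig2 had 2 peaks upstream, of 756 bp at chr16:91166888-91167643 and of 487 bp at chr16:91170029-91170515, at 58530 and 55524 bp from its TSS. The narrower of these was the narrowest of the 18 and overlapped Gm9881, an annotated transcript. Of the wider, 35.7% of 32-base words were repeated in the genome, and it includes a long run of the dinucleotide gt. No peak lay between the Olig2 and Olig1 promoter peaks. By nearest annotated TSS all 3 of these remote peaks would pass to annotated transcripts other than Olig1 and Olig2, namely Gm9881 and Gm15966.

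Nes (NM_016701, plus strand, chr3:87775000-87784373) had the largest summed peak width, 5375 bp over 3 peaks. The promoter peak of 2444 bp at chr3:87773903-87776346 had its midpoint 109 bp downstream of the TSS and was wider than 94.9% of peaks within 1 kb. It extended over 1097 bp upstream of the gene and through 786 bp of coding sequence into 436 bp of intron. A peak of 1382 bp at chr3:87764029-87765410 lay 10296 bp upstream, and its midpoint was nearer to an internal annotated TSS of the upstream gene Crabp2 than to that of Nes. The intronic peak, of 1549 bp at chr3:87777491-87779039, had its midpoint 3249 bp downstream of the TSS and consisted of 1475 bp of intron and 74 bp of coding exon. The upstream and intronic peaks were wider than 88.3% and 84.9% of the peaks in their classes of distance, 10 to 100 kb and 1 to 10 kb.

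The intronic Nes peak spanned the second intron, the third exon and the start of the third intron. The second intron of Nes is known for an enhancer that drives expression in neural progenitors, and whether the peak coincides with that element was not tested. Its centre is shown for this position (chr3:87778116-87778415, plus strand), with a CAGATG E-box in capitals near the 3′ end. Its CpG ratio was 0.25, the lowest of the 6 peaks lying between 1 and 10 kb from a TSS.
Nes intronic peak centre: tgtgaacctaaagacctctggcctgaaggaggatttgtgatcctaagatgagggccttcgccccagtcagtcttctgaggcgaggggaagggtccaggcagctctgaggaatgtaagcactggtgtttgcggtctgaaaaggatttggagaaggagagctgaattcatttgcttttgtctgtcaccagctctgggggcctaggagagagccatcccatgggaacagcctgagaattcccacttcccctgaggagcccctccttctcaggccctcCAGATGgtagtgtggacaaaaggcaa

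Tubb3 (NM_023279, plus strand, chr8:125935324-125945915) had a promoter peak of 1030 bp at chr8:125934890-125935919, with a deposited midpoint 60 bp upstream of the TSS. It covered 434 bp upstream of the annotated gene, 182 bp of untranslated exon, 57 bp of coding sequence and 357 bp of intron. It was the narrowest of the 6 promoter peaks, and 21.0% of peaks within 1 kb were narrower. The second peak, of 885 bp at chr8:125946033-125946917, began 118 bp past the end of the gene, 11010 bp from the TSS. Tubb3 lies in a denser gene region than the others, with the TSS of Mc1r 4342 bp upstream.

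Peak widths at the 9 genes were spread more widely than a single median shows. The 18 peaks had a median width of 1064 bp (95% order-statistic interval 885 to 1549 bp), ranged from 487 to 2488 bp and summed to 23119 bp. The median of all peaks in the list was 1081 bp, and 8 of the 18 exceeded it. The midpoint was at most 1 kb from the TSS in 6 of the 18, against 44.9% of all peaks.

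Because peaks near a TSS are wider than remote ones, widths were compared within classes of distance. Within 1 kb the median of all peaks was 1326 bp, with quartiles of 1072 and 1691 bp. The 6 promoter peaks fell outside this range in both directions. Those of Atoh1 (2488 bp), Nes (2444 bp), Olig1 (2374 bp) and Neurog1 (1833 bp) were above the upper quartile, and those of Olig2 (1059 bp) and Tubb3 (1030 bp) were below the lower one. Between 1 and 10 kb the 6 peaks had a median of 1123 bp, against 1014 bp for all peaks in that class. Between 10 and 100 kb the 5 peaks had a median of 885 bp, against 903 bp. The remote Atoh1 peak of 865 bp compared with a median of 805 bp beyond 100 kb. Outside the promoters, the intronic and upstream Nes peaks were above the quartile range of their class, and the upstream Neurog2 peak (653 bp) and the narrow Olig2 peak (487 bp) were below it.

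**Figure D3:**
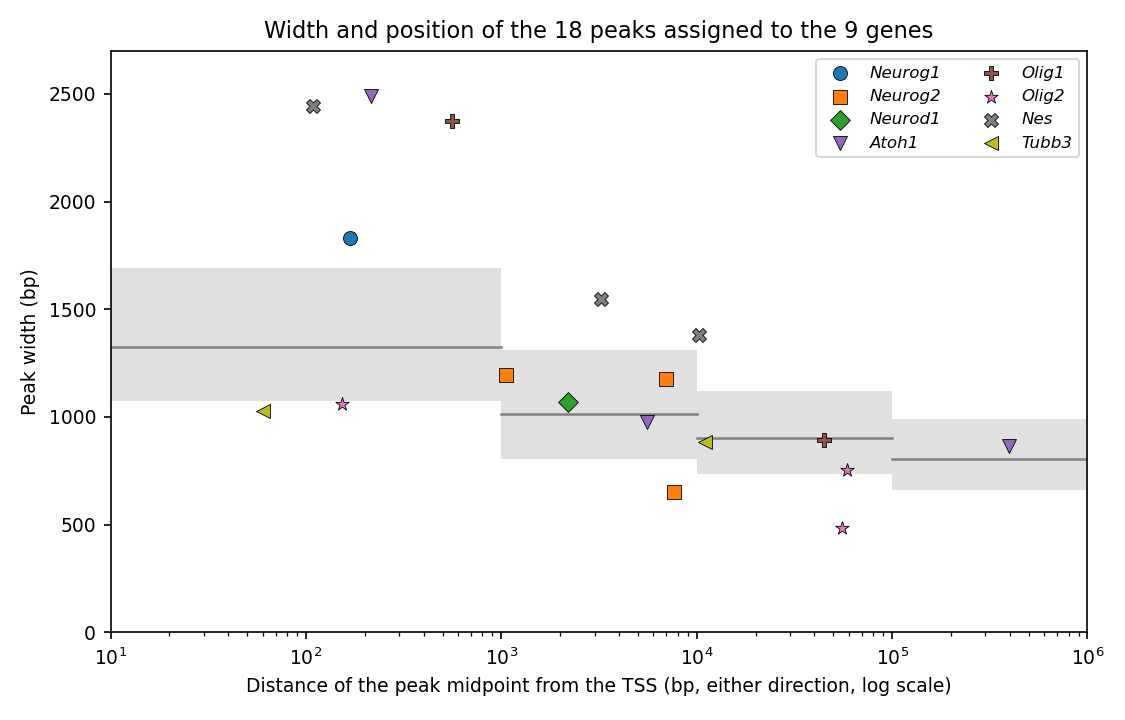
Each symbol is one of the 18 peaks, placed by the distance of its midpoint from the assigned TSS (horizontal log axis, bp) and by its width (vertical axis, bp). Grey lines and bands give the median and the quartiles of all peaks in each of 4 distance classes. Within 1 kb, 4 symbols lie above the band and those of Olig2 and Tubb3 lie just under it. Farther out, both Nes peaks lie above the band, and the 2 remote Olig2 peaks are the lowest beyond 10 kb.

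The promoter peaks also differed in which side of the TSS was open. Over 8759 CpG-rich coding genes with the TSS in a peak, the peak reached a median of 619 bp upstream (quartiles 465.5 and 826 bp) and 770 bp downstream (601 and 1016 bp). Olig1 reached 627 bp upstream and 1746 bp downstream. Atoh1 reached 1458 bp upstream and 1029 bp downstream, and Nes 1112 and 1331 bp, counted from the TSS of its coding transcript, which lies slightly inside the annotated gene. Olig1 was therefore extended on the gene side alone, and Atoh1 and Nes on both sides. Neurog1, with 750 and 1082 bp, was above the upper quartile on the gene side only. Olig2 reached 681 bp upstream and 377 bp downstream, and Tubb3 434 and 595 bp, so that both were under the lower quartile on the gene side and Tubb3 also on the upstream side.

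Most peaks of the 9 genes with a midpoint beyond 1 kb from the TSS, the middle Neurog2 peak over the promoter window included, had a high CpG ratio for their distance. The CpG ratio compares the CpG count with that given by the base composition, and is low over most of the mouse genome because methylated CpG is lost over time. Within 1 kb the median ratio was 0.67 for the 6 peaks and 0.68 for all peaks. Between 1 and 10 kb it was 0.68 for the 6 peaks and 0.29 for all, with an upper quartile of 0.48. Between 10 and 100 kb it was 0.45 for the 5 peaks and 0.24 for all, with an upper quartile of 0.35. In 9 of the 12 peaks beyond 1 kb the ratio exceeded the upper quartile of its class. These were the 3 Neurog2 peaks, with 0.83, 0.82 and 0.52 from upstream to downstream, the Neurod1 peak with 0.72, the downstream and remote Atoh1 peaks with 0.64 and 0.41, the remote Olig1 peak with 0.46, the narrow upstream Olig2 peak with 0.57 and the upstream Nes peak with 0.45. The exceptions were the intronic Nes peak, the downstream Tubb3 peak with 0.29 and the wider upstream Olig2 peak with 0.08. GC content differed less, with a median of 55.6% for the 6 peaks between 1 and 10 kb and 53.1% for all peaks of that class.

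Short motifs were counted on both strands in the central 300 bp of each peak. CAGATG was present in 5 of the 18 peaks, against 16.8% of all peaks, 9.28% within 1 kb and 23.0% beyond. The peaks were those in Neurog2 and Neurod1, the promoter and intronic peaks of Nes, and the remote Atoh1 repeat, which alone gave 4 of the 8 matches. CAGCTG was present in 3 of the 18, the downstream Atoh1 peak and the upstream and promoter peaks of Nes, against 21.2% of all peaks. For the GATA factor motif AGATAA, the one match was in the narrow upstream Olig2 peak, against 9.50% of all peaks. Neither CTAATGG nor CTAATTG, forms of the Isl1-type homeodomain site, was found in any of the 18, and 3.14% of all peaks held one of them. Matches of the motifs were counted separately, and a match describes letters and not binding. With 18 peaks, counts this small were not compared with the list by a test.

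Related genes of the same biology were counted in 7 lists with 61 genes that are not among the 9. In all, 53 of the 61 (86.9%) had a peak, against 62.5% of all protein coding genes. They had 100 peaks and a median of 1 per gene. A peak overlapped the promoter of 39 of the 60 genes found in the annotation (65.0%), against 53.6% of all coding genes. The oligodendrocyte list had the lowest shares of the 7, with 33.3% of genes with a peak and 16.7% with a promoter peak. The plot of shares by list shows this. Of 29 CpG-rich promoters in these lists, 23 carried a peak, a share below the 89.4% of all CpG-rich coding promoters.

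Among the other neurogenic bHLH genes, 9 of 10 had a peak and 6 of 10 had one over the promoter. Nhlh1 had none, and Olig3, a factor of dorsal neural progenitors, had 2, the highest number in the list. Neurod6 resembled Neurod1 in having a single peak away from the promoter, at 4362 bp. The E-protein partners Tcf3, Tcf4 and Tcf12 had 2, 4 and 3 peaks, each including the promoter. The TSS base lay inside a peak in each case. All 3 promoters were CpG-rich, and 88.3% of all CpG-rich coding genes had the TSS base inside a peak.

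The inhibitors of neurogenesis had 25 peaks over 10 genes, the highest total of the 7 neural lists, and each gene had at least 1. Id3 had 7 peaks, Id2 had 4, and Id1 and Id4 had 3 each. Hes3 and Hes5 had no peak over the promoter, unlike Hes1, whose widest peak was 3074 bp. Rest, which represses neuronal genes outside the nervous system, had 1 peak of 2029 bp over its promoter, and the single peak of its cofactor gene Rcor2 measured 6640 bp. Id and Hes genes also act in mesoderm, where Hes1 and the Id genes restrain differentiation.

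Of the neural progenitor factors, all 9 had a peak, and 4 of 8 with an annotated promoter (50.0%) had one over it, beside the 53.6% of all coding genes. Sox1 had 5 peaks and Pax6 had 3. Sox2, Sox3, Zic1 and Zic2 had a promoter peak, and Pax6, Otx2 and Msi1 did not. The oligodendrocyte list had the fewest, with 2 of 6 genes and 1 promoter. Sox10, Nkx2-2 and Cspg4 had no peak, and Pdgfra, which is also a mesoderm gene, and Mbp had 2 each. Olig1 and Olig2 had promoter peaks while Sox10, Nkx2-2 and Cspg4, of the oligodendrocyte lineage, had no assigned peak. The promoter classes differed. Those of Olig1, Olig2 and Nkx2-2 were CpG-rich, and those of Sox10 and Cspg4 were CpG-poor. Over all coding genes, 89.4% of CpG-rich and 24.8% of CpG-poor promoters overlapped a peak.

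Of the tubulin and intermediate filament genes, 9 of 11 had a peak and 9 of 11 had one over the promoter. Tubb4a, Tubb6, Nefl and Nefm had 2 peaks each, and Tubb5 and Nefh had no assigned peak. The promoter of Nefh was nevertheless overlapped by a peak that the list assigned to another gene, which shows the limit of counting by assigned symbol. Of the genes for neuronal proteins, 11 of 12 had a peak and 8 of 12 a promoter peak. Snap25 and Ncam1 had 5 each, and Dcx, which encodes the doublecortin of migrating neurons, had none.

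Lists from other lineages set the range. Of 20 bHLH genes of other lineages, 16 (80.0%) had a peak, 11 had one over the promoter and the median was 2 per gene, beside 8 of 9, 7 of 9 and 2 per gene for the neural genes. Myf5, Myf6, Hand2 and Scx had none. Of 12 liver genes, 4 (33.3%) had a peak and 0 had one over the promoter. None of the liver promoters was CpG-rich, in contrast to 8 of the 9 at the neural genes. The neural genes were thus nearer in their counts to the other bHLH regulators than to the liver genes, and these differences have no test.

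**Figure D4:**
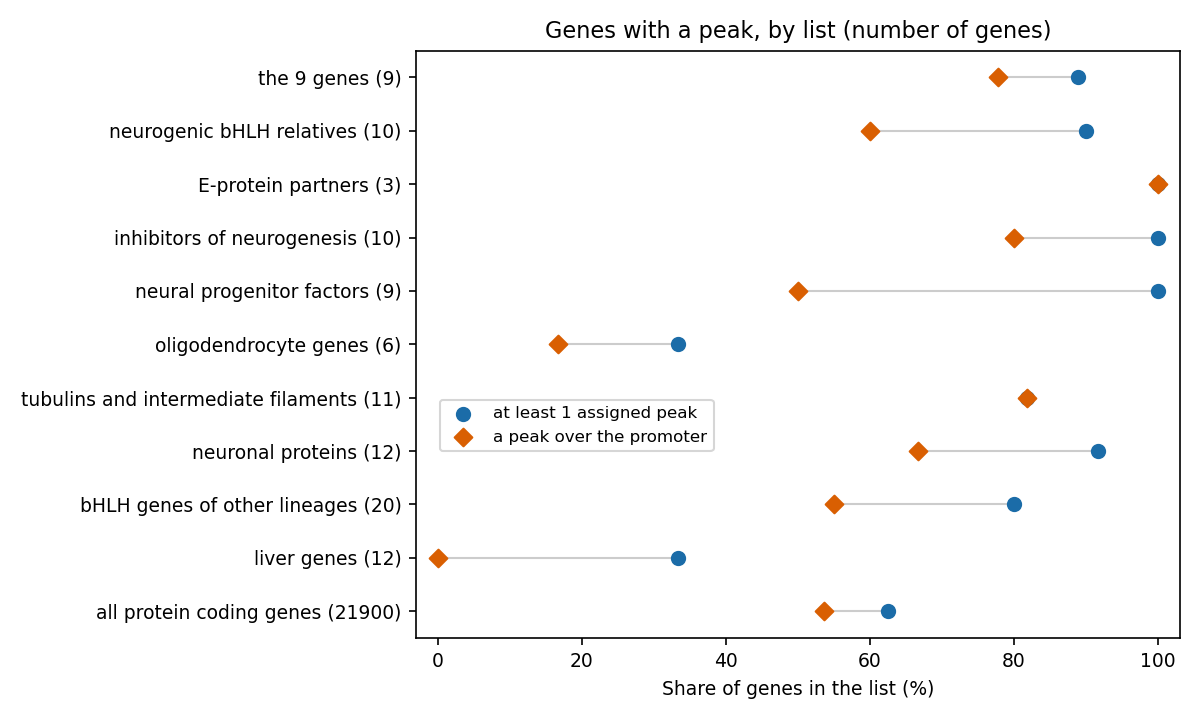
For each gene list (vertical axis, number of genes in parentheses) the blue circle gives the share of genes with at least 1 assigned peak and the orange diamond the share with a peak over the promoter, both in % (horizontal axis). The share with a peak is 88.9% for the 9 genes, 33.3% for the oligodendrocyte and liver genes and 62.5% for all protein coding genes, and no liver gene has a promoter peak.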

How the data were processed

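ATAC-seq peaks were analysed for 2 samples of 1 group. Per the study's methods, the authors mapped reads to mm9 with bowtie2, filtered them with samtools, removed duplicates with Picard 1.136, and called peaks in each replicate with MACS14 using a fixed shift of reads. Blacklisted peaks were dropped, and bedtools 2.15 retained those sharing 1 bp or more with a peak of the second replicate. HOMER assignment to the nearest TSS is described for ChIP-Seq. No correction of reads for the offset of Tn5 is mentioned beyond that shift.

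The deposited values, per the authors' single list of 6 columns, are peak starts and ends and signed TSS distances in bp. Its 26429 lines held 26232 distinct intervals, each counted once. Positions are 1-based on mm9. Sequence came from NCBIM37, which is mm9, promoters and neighbouring genes from GENCODE vM1, and 21900 coding genes from a RefSeq table used for names (96.7% of intervals matched by accession). Order-statistic and Wilson intervals at 95% cover counting error over peaks or genes only. Uniqueness was counted over 32-base words. Analyses used Python 3.11.15, numpy 2.4.6, scipy 1.17.1 and pysam 0.24.0, with functions tested on simulated data.

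Named genes were all 9 genes with every peak and, for each related list, those with most peaks and those with none; Neurod6, the Hes genes, Rest, Rcor2 and the promoter calls of progenitor factors were named after their values were seen. Some genes of the related lists are counted and not reported here by name. The genes and lists were chosen with earlier results of these data known. Alternatives were assignment, minimum width, promoter size, distance limits and joining of neighbouring peaks.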

Additional observations from a re-analysis of the deposited data

How the results depend on the processing

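No replicate could be left out and no paired analysis was possible because the list holds 1 group with no value per replicate. Of 40 alternatives over 7 results, 37 stayed within 1.5 times the count or inside the interval of the median width. The numbers of genes with at least 2 or at least 3 peaks were not among the 7 results. The other 3 came from keeping only peaks wider than the median of all peaks, which left 5 genes with a peak, 8 peaks and a median width of 1691 bp. Assignment to the nearest annotated TSS gave 7 genes, 12 peaks and 1186.5 bp, with Neurod1 and several remote peaks passing to annotated transcripts nearby or, for the upstream Nes peak, to an internal TSS of Crabp2. A promoter of 250 bp on either side gave 6 genes with a promoter peak, losing Neurog2. Leaving out the repeated remote Atoh1 peak, a setting added after the data were seen, gave 17 peaks at 8 genes and a median of 1069 bp. Depth is unknown, so a gene without a peak may have been missed in either sample.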

Other observations

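The octamer ATTTGCAT, the site of POU factors, was searched after the sequence of the remote Atoh1 peak was seen. It was present in the central 300 bp of 508 of 26232 peaks (1.94%) and in 1 of the 18 peaks of the neural genes, the remote Atoh1 peak. Among the other peaks, repeated words were 10.9% in the promoter peak of Nes, 7.99% in its upstream peak and 5.51% in the promoter peak of Tubb3, and 10 of the 18 peaks held none.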
